A study of Homo sapiens with 6 samples.

Results

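The collagen chain genes are the genes that encode the alpha chains of the collagens, and they were taken as every gene of the array whose symbol consists of COL, a number, A and a number. Of 22448 named genes, 41 met this rule. Collagen chains wind around each other as triple helices of like or unlike chains, and the helices assemble outside the cell into fibrils, sheets or filaments. Fibrillar collagens carry the tensile load of connective tissue, type IV forms the network of basement membranes, including the one that sheathes each muscle fibre, type VI forms beaded filaments near that membrane, and the FACITs (fibril-associated collagens with interrupted triple helices) decorate the surface of fibrils. Before they leave the cell, the chains are hydroxylated, glycosylated and folded by a set of enzymes and chaperones, and outside it they are trimmed, cross-linked and bound by receptors.

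Transcript levels were read on 6 arrays of RH30, an established line of alveolar rhabdomyosarcoma with the PAX3::FOXO1 fusion. In 3 of them, RH30-SR MyoDΔ, the cells were clone 29, in which MyoD, a transcription factor of the skeletal muscle lineage, had been targeted by CRISPR/Cas9. The other 3, RH30-SR, held cells without that edit. The labels give DMEM with fetal bovine serum as the medium of all cells, whereas the methods of the study give RPMI for this line. Both groups carried a retroviral IκBα super-repressor, which holds NF-κB in the cytoplasm. The labels do not say what the RH30-SR cells had received in place of the MyoD guide, and the study's figure legends describe the control of this comparison as vector cells with scrambled guide RNAs. All 3 RH30-SR MyoDΔ arrays came from 1 clone, and how the replicate cultures were kept apart was not given, so that p-values measure only the spread between these arrays. An effect of the edit cannot be told apart from other differences of that clone. Values are log2 levels after RMA (robust multi-array average), a difference is RH30-SR MyoDΔ minus RH30-SR on that scale, and levels of different genes cannot be compared, because each gene has its own probes. A gene was called where the limma test, adjusted by the Benjamini-Hochberg method over all 65535 transcript clusters, gave p below 0.05 and the fold change exceeded 25% (0.32 on the log2 scale).

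The targeted gene was lower in RH30-SR MyoDΔ. MYOD1 had log2 levels of 6.95, 7.16 and 6.90 in RH30-SR MyoDΔ, against 9.09, 9.50 and 9.43 in RH30-SR, a difference of -2.34 (SE 0.12, 3 arrays per group; limma adjusted p = 1.02e-04), and the groups did not overlap. Of 16 myogenic and rhabdomyosarcoma markers 8 were called lower and 2 higher (62.5%, against 7.01% of all named genes). Those called higher were MYF5 (0.98) and PAX3 (0.57). Whether the PAX3 level includes the PAX3::FOXO1 transcript was not tested. The mean level of that list lay between 6.12 and 6.16 in RH30-SR MyoDΔ and between 7.04 and 7.18 in RH30-SR. In bulk RNA, fewer cells of a type and less RNA per cell cannot be told apart. Over all named genes the median difference was -0.01. Across clusters, which are not independent, the arrays correlated at 0.989 to 0.992 between the groups and at 0.994 to 0.997 within a group.

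The collagen genes called were 2 FACITs, 1 multiplexin and 1 type VI chain. COL14A1, COL19A1 and COL15A1 were lower in RH30-SR MyoDΔ, COL6A6 was higher, and the major fibrillar genes COL1A1, COL1A2, COL5A1 and COL5A2 were not called. This made 4 called genes of 41 (9.76%), against 7.01% of all named genes. By direction, 3 collagen genes were lower, against a background of 4.20%, and 1 was higher, against 2.81%. With the adjusted p alone and no limit on the fold, 8 of 41 (19.5%) passed, against 9.95% of all named genes. The additional genes were COL27A1 and COL11A1, which were lower, and COL4A1 and COL4A2, which were higher. The groups did not overlap in 14 of 41 collagen genes (34.1%), a share near the background of 34.2%. The median difference over the 41 genes was -0.03, and 30 of the differences were counted as negative (73.2%), against 54.6% over all named genes. The count of 30 includes COL11A2, whose difference was 0.00.

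**Figure D1:**
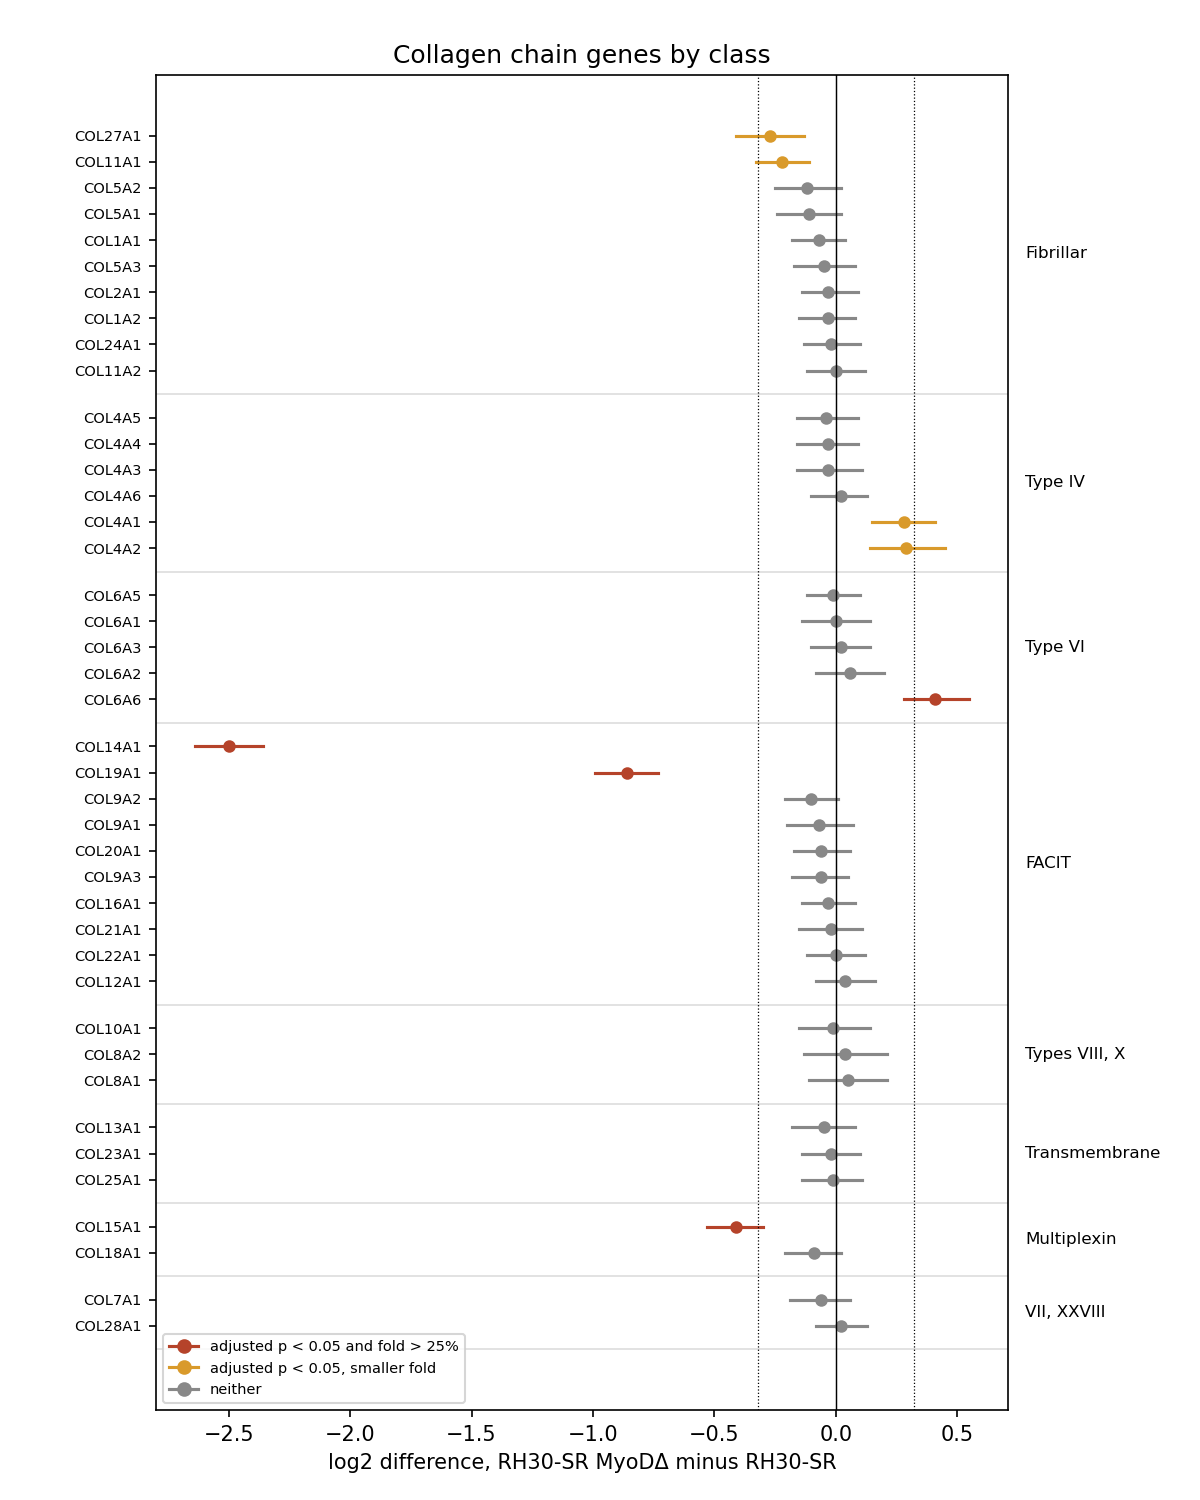
Log2 difference in expression (RH30-SR MyoDΔ minus RH30-SR, 3 arrays per group) of the 41 collagen chain genes, grouped by class, with the limma estimate as a point and its 95% interval as a bar. The solid line marks 0 and the dotted lines a fold change of 25%; COL14A1 lies far to the left at -2.50, while the 33 grey genes lie between -0.12 and 0.06.

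The FACITs held the largest difference. COL14A1 encodes collagen XIV, which binds to the surface of collagen fibrils. Its log2 level was 4.80, 4.67 and 4.69 in RH30-SR MyoDΔ, against 7.20, 7.19 and 7.27 in RH30-SR. Every RH30-SR MyoDΔ array lay well below every RH30-SR array, with a gap many times the spread within either group. The difference was -2.50 ± 0.06 (SE; 95% interval -2.64 to -2.36; limma adjusted p = 3.81e-06), so that RH30-SR MyoDΔ kept 17.7% of the RH30-SR level, 5.66-fold lower. The level in RH30-SR MyoDΔ came near the median of all transcript clusters (4.29), and with no background measure on these arrays the size of the fall is uncertain. COL14A1 lies on chromosome 8, and of the 5 measured genes on each side of it 2 were called lower, against 4.20% of all named genes. They were SNTB1 (-1.26), which encodes a syntrophin, and HAS2 (-0.62), a hyaluronan synthase. The median difference of the 10 neighbours was -0.03.

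COL19A1 encodes collagen XIX, a FACIT found at basement membrane zones. Its log2 levels were 4.81, 4.74 and 4.73 in RH30-SR MyoDΔ, against 5.62, 5.68 and 5.57 in RH30-SR, and the groups did not overlap. The difference was -0.86 ± 0.05 (SE; limma adjusted p = 2.39e-04), which left 55% of the RH30-SR level and ranked 176th in size among the 942 genes called lower. As for COL14A1, the RH30-SR MyoDΔ level came near the median of all transcript clusters, so that the size of the fall is uncertain. The remaining 8 FACIT genes were not called and ranged from -0.10 (COL9A2) to 0.04 (COL12A1). COL12A1 encodes collagen XII, which, like collagen XIV, coats fibrils. It had levels of 7.29, 7.22 and 7.22 in RH30-SR MyoDΔ, against 7.24, 7.17 and 7.20 in RH30-SR, with overlapping groups and an interval of the difference from -0.08 to 0.16 around 0.04. The intervals of COL14A1 and COL12A1 did not overlap. All 3 chains of collagen IX, the FACIT of cartilage fibrils, had small negative differences (COL9A1 -0.07, COL9A2 -0.10, COL9A3 -0.06) that did not pass the test. The median of the 10 FACIT genes was -0.06.

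Of the multiplexins, collagens of the basement membrane zone that release endostatin-like fragments from their C-terminal ends, COL15A1 was called. Its levels were 6.22, 6.18 and 6.15 in RH30-SR MyoDΔ, against 6.61, 6.59 and 6.59 in RH30-SR, with each RH30-SR MyoDΔ array below each RH30-SR array. Collagen XV is a component of the basement membrane around skeletal muscle fibres and capillaries. The difference of COL15A1 was -0.41 ± 0.05 (SE; limma adjusted p = 0.00368), or 75.1% of the RH30-SR level, and ranked 660th among the 942 genes called lower. COL18A1, the other multiplexin gene and the source of endostatin, had levels of 6.22, 6.19 and 6.20 in RH30-SR MyoDΔ, against 6.29, 6.34 and 6.26 in RH30-SR. These groups did not overlap either, but the difference of -0.09 (95% interval -0.21 to 0.02) did not pass the test (adjusted p = 0.375).

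COL6A6 was the single collagen gene called higher. It encodes one of the long alpha chains of collagen VI that can take the place of the alpha3 chain in the trimer. Levels were 4.90, 5.01 and 4.91 in RH30-SR MyoDΔ, against 4.56, 4.55 and 4.47 in RH30-SR, and the groups did not overlap. The difference was 0.41 ± 0.06 (SE; limma adjusted p = 0.00729), or 133% of the RH30-SR level, and ranked 373rd in size among the 631 genes called higher. Like COL14A1 in RH30-SR MyoDΔ, COL6A6 lay close to the median of all clusters, here on all 6 arrays. The chains that make up the usual collagen VI trimer, COL6A1, COL6A2 and COL6A3, differed by 0.00, 0.06 and 0.02 and were not called. COL6A2 had levels of 6.84, 6.79 and 6.82 in RH30-SR MyoDΔ, against 6.70, 6.85 and 6.72 in RH30-SR, with overlapping groups. COL6A5, another long chain, was below the median of all clusters, with a difference of -0.01.

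The promoters of COL19A1, COL15A1 and COL6A6 are shown because these are called genes for which a RefSeq promoter (GRCh38.p14) was at hand. Printed are the 250 bases before each start, read on the strand of the gene, and capitals mark matches, on either strand, to the E-box CANNTG (the general form of the site that MyoD-type factors bind), the CCAAT box (CCAAT), the TATA box (TATAAA) and the GC box (GGGCGG).
COL19A1 (chr6:69866306-69866555, plus strand): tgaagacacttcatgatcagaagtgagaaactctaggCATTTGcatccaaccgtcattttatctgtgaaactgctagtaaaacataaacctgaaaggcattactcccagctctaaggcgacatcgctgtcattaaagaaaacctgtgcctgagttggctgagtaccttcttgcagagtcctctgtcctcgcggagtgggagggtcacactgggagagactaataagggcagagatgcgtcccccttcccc
COL15A1 (chr9:98943657-98943906, plus strand): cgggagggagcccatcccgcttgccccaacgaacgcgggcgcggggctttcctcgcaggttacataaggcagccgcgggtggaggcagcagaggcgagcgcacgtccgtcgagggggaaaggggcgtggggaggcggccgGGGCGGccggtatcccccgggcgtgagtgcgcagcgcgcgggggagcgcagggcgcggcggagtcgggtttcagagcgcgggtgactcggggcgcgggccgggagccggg
COL6A6 (chr3:130516927-130517176, plus strand): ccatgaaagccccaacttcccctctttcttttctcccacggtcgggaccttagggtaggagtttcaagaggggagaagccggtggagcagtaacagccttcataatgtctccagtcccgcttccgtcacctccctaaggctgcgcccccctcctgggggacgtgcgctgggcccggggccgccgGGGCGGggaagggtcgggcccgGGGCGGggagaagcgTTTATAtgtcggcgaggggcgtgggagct
COL19A1 held 1 E-box, of the form CATTTG, and none of the other motifs. COL15A1 held 1 GC box, and COL6A6 held 2 GC boxes and 1 TATA box. An E-box was found in 61.8% of all 35116 promoter windows and in 22 of 42 windows (52.4%) of the 30 collagen genes matched, which include alternative starts. The corresponding shares of all windows were 32.0% for the CCAAT box, 10.7% for the TATA box and 42.6% for the GC box, and of the collagen windows 26.2%, 16.7% and 57.1%. A match describes letters and not a bound site, and no match says only that these letters are not in this window.

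**Figure D2:**
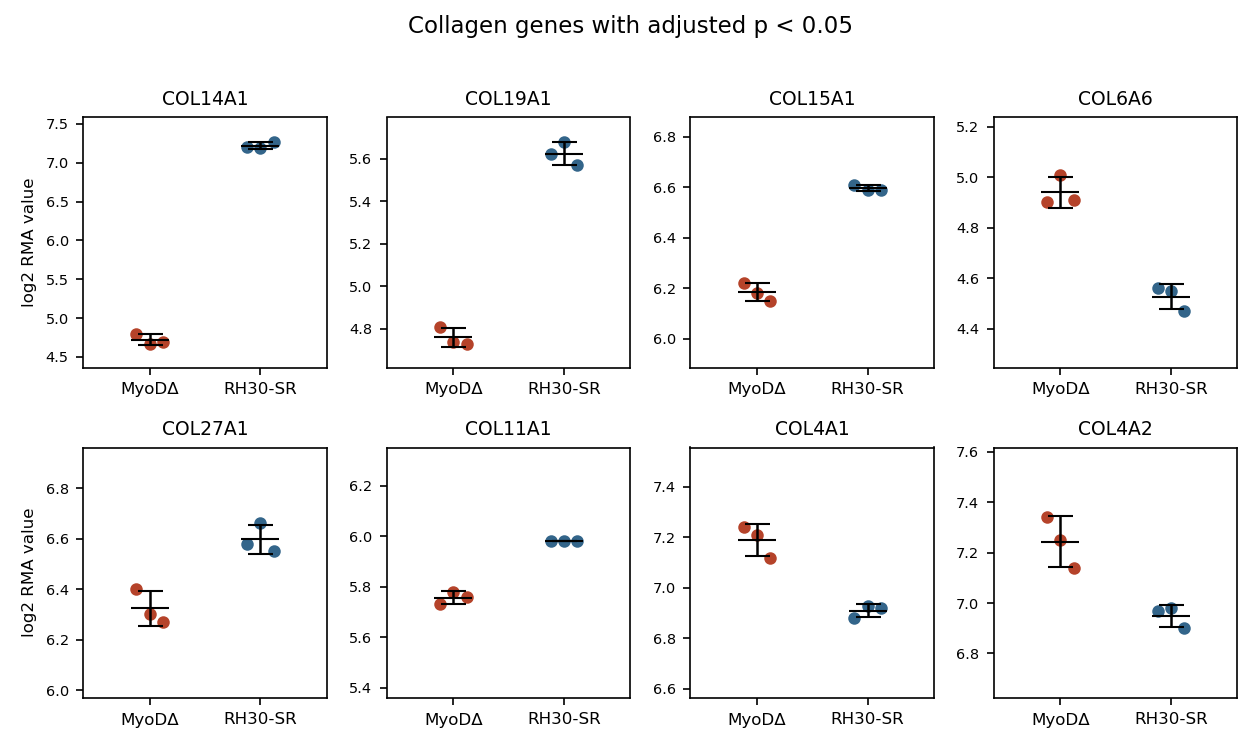
Log2 RMA level on each array of the 8 collagen genes with a limma adjusted p below 0.05, RH30-SR MyoDΔ left and RH30-SR right in each panel; points are arrays, and bars are the mean ± SD of 3 arrays. Each panel has its own vertical range, and in none do the groups overlap.

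Type IV collagen, the network former of basement membranes, has 6 chain genes, arranged as 3 head-to-head pairs. The widely expressed pair, COL4A1 and COL4A2, was higher in RH30-SR MyoDΔ by less than the 25% limit. COL4A1 had levels of 7.24, 7.21 and 7.12 in RH30-SR MyoDΔ, against 6.88, 6.93 and 6.92 in RH30-SR, a difference of 0.28 ± 0.05 (SE; limma adjusted p = 0.0281). COL4A2 had levels of 7.34, 7.25 and 7.14 in RH30-SR MyoDΔ, against 6.97, 6.98 and 6.90 in RH30-SR, a difference of 0.29 ± 0.07 (limma adjusted p = 0.0472). For both genes each RH30-SR MyoDΔ array lay above each RH30-SR array. The adjusted p of both was above 0.05 whenever any 1 array was left out (COL4A1 0.0514 to 0.109, COL4A2 0.0538 to 0.148), with the difference between 0.24 and 0.34. The log2 ratio of COL4A1 to COL4A2 within an array averaged -0.05 ± 0.04 in RH30-SR MyoDΔ and -0.04 ± 0.06 in RH30-SR (SD, n = 3), a difference of -0.01 (exact permutation test, two-sided p = 0.9). Of the 5 measured genes on each side of COL4A1 on chromosome 13, COL4A2 among them, limma called 0. COL4A2 itself was the 1 of the 10 with an unadjusted p below 0.05 (10.0%, against 24.6% of all named genes). The median of the 10 was 0.02, which was also the median of the 408 genes of that chromosome.

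COL4A1 and COL4A2 run away from each other from starts that lie 126 bases apart. The stretch between the starts is shown because both genes were higher by nearly the same amount, with the COL4A2 strand as the one printed, with the same motifs in capitals and from the same source.
COL4A1 to COL4A2 (chr13:110307158-110307283, plus strand): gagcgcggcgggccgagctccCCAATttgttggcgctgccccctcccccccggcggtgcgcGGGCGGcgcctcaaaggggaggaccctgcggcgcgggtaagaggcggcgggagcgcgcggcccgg
It held 1 CCAAT box and 1 GC box, and no E-box or TATA box. The other pairs, COL4A3 with COL4A4 and COL4A5 with COL4A6, encode chains of more restricted basement membranes such as that of the kidney glomerulus. Their differences lay between -0.04 and 0.02 and none passed the test. COL4A3, COL4A5 and COL4A6 lay below the median of all clusters. The median of the type IV genes was -0.01.

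Of the fibrillar genes 10 were analysed and limma called 0 of them, at a median of -0.06, with no difference above 0.00. The unadjusted p was below 0.05 in 2 of them (20.0%, against 24.6% of all named genes), COL11A1 and COL27A1. COL11A1 encodes a chain of collagen XI, a minor collagen inside fibrils that is best known from cartilage. Its levels were 5.73, 5.78 and 5.76 in RH30-SR MyoDΔ, against 5.98 on each of the 3 RH30-SR arrays, with a difference of -0.22 ± 0.05 (SE; limma adjusted p = 0.0366). The groups did not overlap, but the SD of 0.00 in RH30-SR, on values rounded to 2 decimals, compares with a median SD of 0.049 over the 41 genes in that group. COL27A1, which encodes a fibrillar collagen of cartilage, had levels of 6.40, 6.30 and 6.27 in RH30-SR MyoDΔ, against 6.58, 6.66 and 6.55 in RH30-SR. It was lower in each RH30-SR MyoDΔ array, by -0.27 ± 0.06 on average (limma adjusted p = 0.0427). Both missed the 25% limit, and left-out arrays took their adjusted p above 0.05 in all 6 fits (COL11A1 0.0667 to 0.125, COL27A1 0.0624 to 0.152). COL27A1 was the one collagen gene with a second transcript cluster, which read 4.53, 4.81 and 4.51 in RH30-SR MyoDΔ, against 5.27, 4.99 and 5.09 in RH30-SR, and was called lower (-0.50 ± 0.11, SE; limma adjusted p = 0.0390).

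The main fibril chains analysed were not called, and COL3A1 was not analysed. COL5A2, a chain of collagen V, which starts fibrils and limits their width, had levels of 6.98, 6.86 and 6.90 in RH30-SR MyoDΔ, against 7.09, 7.02 and 6.98 in RH30-SR. The highest RH30-SR MyoDΔ array equalled the lowest RH30-SR array, and the difference of -0.12 (95% interval -0.25 to 0.02) did not pass the test. COL5A1 differed by -0.11 (interval -0.24 to 0.02). COL1A1, the main chain of collagen I, the chief collagen of tendon, skin and bone, had levels of 6.08, 6.03 and 6.08 in RH30-SR MyoDΔ, against 6.14, 6.14 and 6.13 in RH30-SR. These groups did not overlap, yet the difference was only -0.07 (interval -0.18 to 0.04; adjusted p = 0.481). COL1A2, the second chain of collagen I, differed by -0.03 (interval -0.15 to 0.08) with overlapping groups. COL2A1, the main collagen of cartilage, differed by -0.03 (interval -0.14 to 0.09).

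In the short-chain collagens, the transmembrane collagens and the rest limma called 0 of 8 genes, and 0 had an unadjusted p below 0.05, against 24.6% of all named genes. COL8A2, of the hexagonal lattices of collagen VIII, had levels of 5.45, 5.45 and 5.61 in RH30-SR MyoDΔ, against 5.45, 5.56 and 5.38 in RH30-SR, with overlapping groups and a difference of 0.04. Dimmer than the median of all clusters were COL8A1 and COL10A1, the gene of hypertrophic cartilage collagen, with differences of 0.05 and -0.01. COL23A1, a transmembrane collagen, had levels of 6.32, 6.28 and 6.30 in RH30-SR MyoDΔ, against 6.28, 6.38 and 6.30 in RH30-SR, a difference of -0.02. The other transmembrane genes, COL13A1 (at the neuromuscular junction) and COL25A1 (in muscle innervation, known from mice), differed by -0.05 and -0.01, and neither passed the test. COL7A1, the gene of the anchoring fibrils of skin, had levels of 5.94, 5.88 and 5.89 in RH30-SR MyoDΔ, against 5.95, 6.03 and 5.92 in RH30-SR, a difference of -0.06 with overlapping groups.

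Over the 33 collagen genes whose adjusted p was not below 0.05, the lowest adjusted p was 0.329 and the 95% intervals lay within -0.25 to 0.21, that is, within the 25% limit for each of the 33. Of their differences 25 were counted as negative (75.8%, against 54.6% over all named genes) and 8 as positive. The negative count includes COL11A2, whose difference was 0.00. In 21 of these 33 genes (63.6%) the highest of the 6 arrays was RH30-SR replicate 2, as it was in 6904 of all named genes (30.8%), and the part of that array in the small negative differences was not tested. The calls of COL14A1, COL19A1, COL15A1 and COL6A6 held without it. Of the 41 genes 9 lay below the median of all clusters. COL3A1 and COL26A1 were left out because the transcript cluster of each is annotated with more than 1 symbol, and their levels were not examined. COL17A1 was not analysed here. Antisense genes named after COL4A2, COL18A1 and COL5A1 (5 genes) differed by -0.07 to 0.05 and none was called (adjusted p 0.742 to 0.919).

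Chains that share a trimer or a head-to-head start region were compared as a log2 ratio within each array, for 9 pairs. With 3 arrays per group the smallest p of the exact permutation test is 0.10, so that no pair could reach 0.05. The ratio of COL11A1 to COL11A2 was -0.13, 0.00 and -0.05 in RH30-SR MyoDΔ, against 0.13, 0.16 and 0.20 in RH30-SR. These values did not overlap and differed by -0.22 (exact two-sided p = 0.10, 0.45 after adjustment over the 9 pairs), and COL11A2 itself differed by 0.00. COL6A1 to COL6A2 was the other pair without overlap, at -0.44, -0.41 and -0.47 in RH30-SR MyoDΔ, against -0.37, -0.37 and -0.39 in RH30-SR, a difference of -0.06 (exact p = 0.10, adjusted 0.45). The ratios of the remaining 7 pairs, among them COL1A1 to COL1A2 (-0.04) and COL5A1 to COL5A2 (0.01), differed by -0.05 to 0.04 with exact p of 0.3 to 1.

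**Figure D3:**
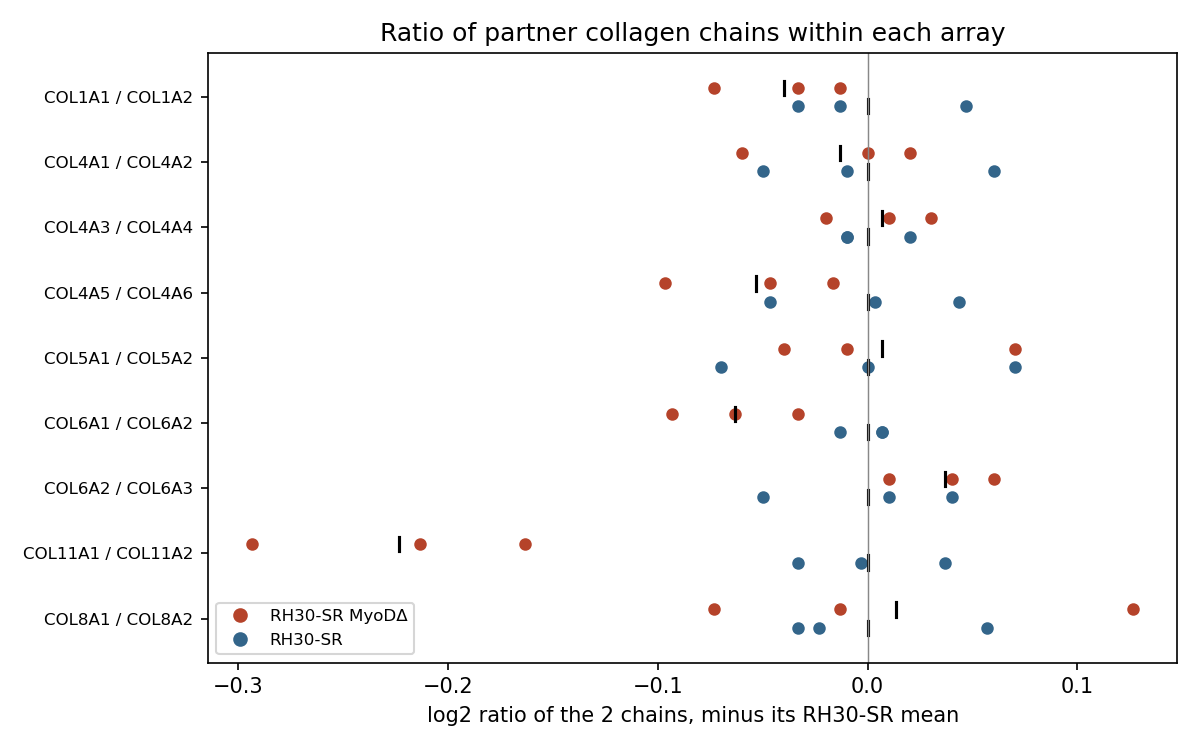
Log2 ratio of 2 partner collagen chains within each array, minus the mean ratio of the 3 RH30-SR arrays, for 9 pairs; points are arrays, with RH30-SR MyoDΔ above RH30-SR in each pair, and the short black lines are group means. The COL11A1 to COL11A2 ratio is shifted by -0.22, while the other pairs lie within -0.06 to 0.04 on average.

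Genes that make, trim, bind and break down collagens were counted in 5 lists. In all, 11 of 73 measured genes (15.1%) were called, 7 lower and 4 higher, against 7.01% of all named genes. In folding and modification 3 of 23 were lower and 2 higher (21.7%, against 7.01%). The unadjusted limma p was below 0.05 in 15 of the 23 (65.2%, against 24.6% of all named genes). The groups did not overlap in 17 of the 23 (73.9%, against 34.2% of all named genes). SPARC, a matrix protein that binds collagen and acts as its chaperone, had levels of 8.65, 8.60 and 8.61 in RH30-SR MyoDΔ, against 9.59, 9.68 and 9.69 in RH30-SR. It was lower in each RH30-SR MyoDΔ array, at 48.9% of the RH30-SR level (-1.03 ± 0.05, SE; limma adjusted p = 9.38e-05). The alpha subunits of prolyl 4-hydroxylase, which makes the hydroxyproline that stabilises the helix, moved in opposite directions. P4HA1 had levels of 8.22, 8.20 and 8.23 in RH30-SR MyoDΔ, against 7.84, 7.79 and 7.94 in RH30-SR (0.36 ± 0.06; adjusted p = 0.0126). P4HA2 had levels of 4.77, 4.73 and 4.76 in RH30-SR MyoDΔ, against 5.20, 5.20 and 5.08 in RH30-SR (-0.41 ± 0.06; adjusted p = 0.00699). Its RH30-SR MyoDΔ level was also near the median of all clusters. Neither gene had overlapping groups, but P4HA1 missed the adjusted p whenever 1 array of RH30-SR MyoDΔ was dropped (0.0524 to 0.0597). The third alpha subunit, P4HA3, differed by 0.00 and the shared beta subunit, P4HB, by -0.19, neither called.

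PLOD2, the lysyl hydroxylase of the collagen telopeptides, was higher in RH30-SR MyoDΔ, with levels of 7.03, 7.17 and 7.11, against 6.63, 6.52 and 6.72 in RH30-SR (0.48 ± 0.07, SE; adjusted p = 0.00938). COLGALT1, which adds galactose to hydroxylysine, was lower, with levels of 8.53, 8.52 and 8.45 in RH30-SR MyoDΔ, against 8.79, 8.91 and 8.83 in RH30-SR (-0.34 ± 0.06; adjusted p = 0.0144). The groups did not overlap in either gene, but COLGALT1 missed the adjusted p without RH30-SR MyoDΔ replicate 2 (0.0568) or 3 (0.0664) or RH30-SR replicate 3 (0.0536), and fell short of the 25% limit without RH30-SR replicate 2 (-0.31). SERPINH1, the collagen chaperone HSP47, differed by -0.18 and was not called (adjusted p = 0.168).

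In processing and cross-linking 2 of 15 genes were called (13.3%, against 7.01% of all named genes). Both were lysyl oxidases, which form the aldehydes of collagen and elastin cross-links. LOXL1 had levels of 8.85, 8.70 and 8.64 in RH30-SR MyoDΔ, against 8.15, 8.26 and 8.19 in RH30-SR (0.53 ± 0.07, SE; adjusted p = 0.00617), and LOX differed by more (1.51 ± 0.06). The groups of both genes were apart. The other lysyl oxidase genes, LOXL2, LOXL3 and LOXL4, differed by -0.10, -0.09 and -0.15 and were not called. The proteases that remove the propeptides of fibrillar chains, among them BMP1 (0.15) and ADAMTS2 (-0.07), were not called.

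Of 12 measured collagen receptors 1 was called (8.33%, against 7.01% of all named genes). ADGRG6, an adhesion receptor that binds collagen IV, had levels of 6.09, 6.17 and 6.10 in RH30-SR MyoDΔ, against 7.07, 6.98 and 7.17 in RH30-SR (-0.95 ± 0.06, SE; adjusted p = 3.19e-04). It was lower in each RH30-SR MyoDΔ array, whereas the collagen-binding integrin alpha subunits ITGA1, ITGA2, ITGA10 and ITGA11 differed by -0.16 to 0.05 and were not called. Of 13 proteases and inhibitors of collagen breakdown 2 were called, both lower (15.4%, against 7.01%). MMP2, a gelatinase that also cleaves collagen IV, had levels of 6.83, 6.75 and 6.70 in RH30-SR MyoDΔ, against 7.23, 7.50 and 7.37 in RH30-SR (-0.61 ± 0.08; adjusted p = 0.00611). TIMP1, an inhibitor of such proteases, had levels of 7.06, 7.01 and 7.06 in RH30-SR MyoDΔ, against 7.33, 7.55 and 7.46 in RH30-SR (-0.40 ± 0.07; adjusted p = 0.0159). The groups overlapped in neither, and the call of TIMP1 was lost without RH30-SR MyoDΔ replicate 1, 2 or 3 or RH30-SR replicate 3 (adjusted p 0.058 to 0.0715). Of 10 small proteoglycans that sit on fibrils 1 was called (10%, against 7.01%). This was LUM, which was lower (-1.31 ± 0.14), with both groups below the median of all clusters.

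**Figure D4:**
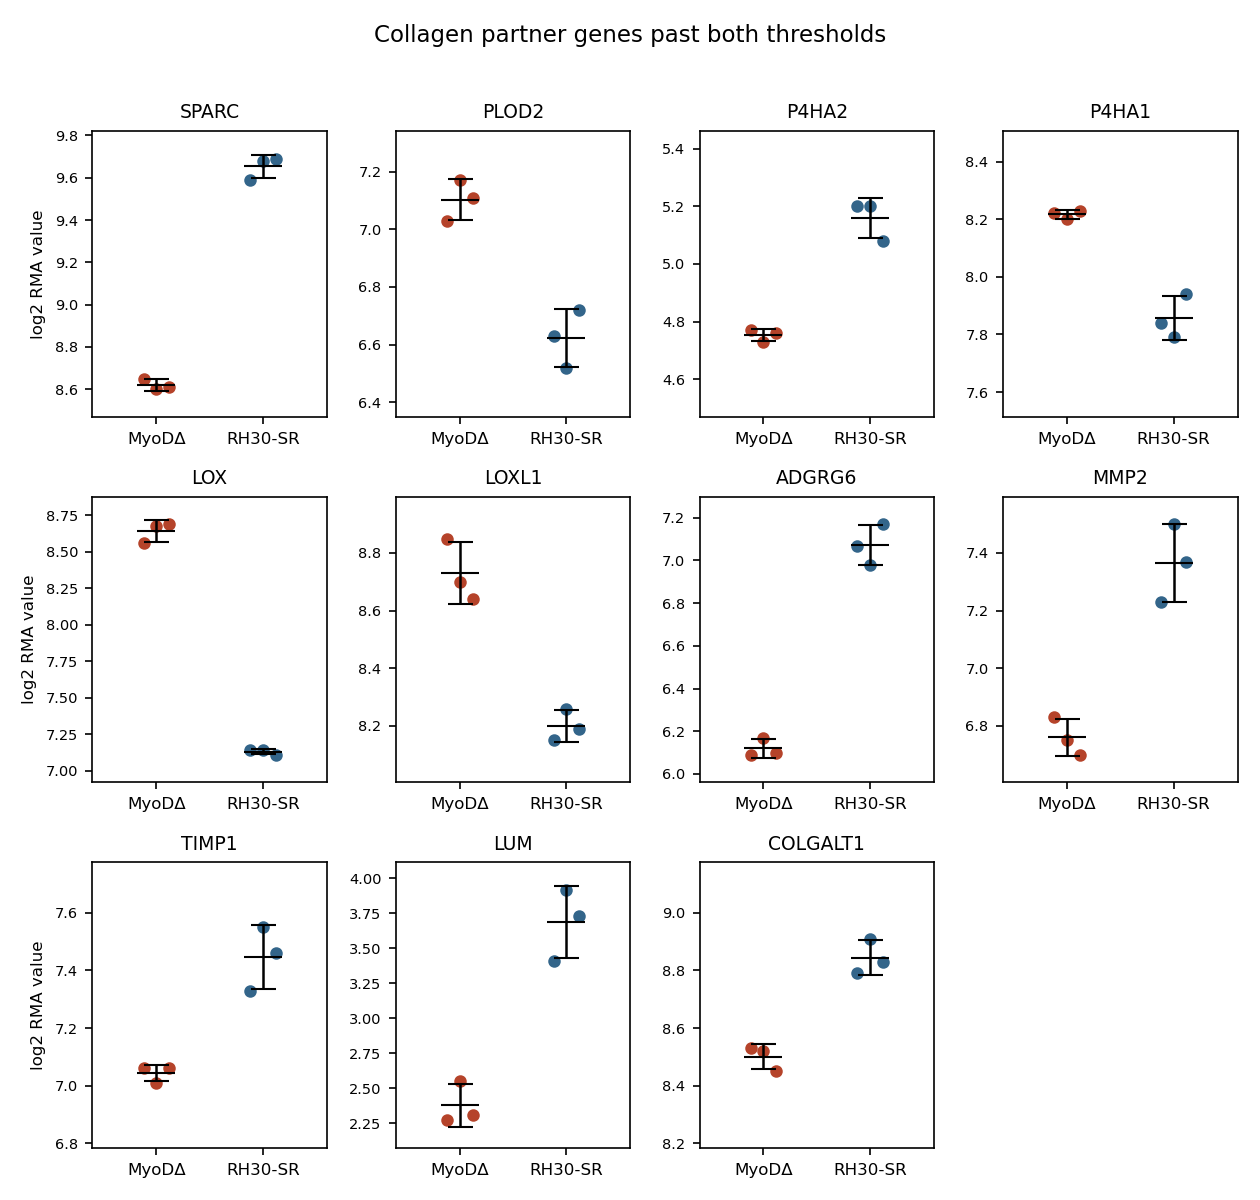
Log2 RMA level on each array of the 11 called genes of collagen folding, cross-linking, binding and breakdown, RH30-SR MyoDΔ left and RH30-SR right in each panel; points are arrays, and bars are the mean ± SD of 3 arrays. Panels have their own vertical ranges; PLOD2, P4HA1, LOX and LOXL1 are higher in RH30-SR MyoDΔ and the other 7 genes are lower.

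Markers of other cell types were also counted. Of 12 fibroblast markers 1 was lower (LUM) and 1 higher (TCF21), 16.7% against 7.01% of all named genes. The mean log2 level of the list was 4.05 to 4.12 in RH30-SR MyoDΔ and 4.13 to 4.31 in RH30-SR. LUM differed by -1.31 and the other genes of that list by -0.18 to 0.39. Of 11 markers of cartilage and bone 2 were lower (18.2%, against 7.01%), the transcription factor genes SOX9 (-0.48) and RUNX2 (-0.47). The mean list level was 4.90 to 4.92 in RH30-SR MyoDΔ and 4.99 to 5.05 in RH30-SR. Of 9 endothelial markers 1, PECAM1, was lower (11.1%, against 7.01%). It differed by -0.48 (limma adjusted p = 0.042), with both groups below the median of all clusters. The mean levels of the list were 4.06 to 4.11 in RH30-SR MyoDΔ and 4.12 to 4.20 in RH30-SR. Of 8 epithelial markers 0 were called by limma (2 of the 8 had an unadjusted p below 0.05, against 24.6% of all named genes), at mean levels of 4.82 to 4.85 in RH30-SR MyoDΔ and 4.83 to 4.85 in RH30-SR. The part of these markers in the collagen differences was not tested.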

How the data were processed

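RNA of 6 cultures (RH30-SR MyoDΔ and RH30-SR, 3 arrays each) was extracted with TRIzol and hybridised to 1-colour Affymetrix transcriptome arrays. The deposited values are log2 levels per transcript cluster, which the authors made with RMA (background correction, quantile normalization, median polish). The submitters' notes name Affymetrix Expression Console, and neither genome build nor annotation release is given in the sources used here. A change shared by most transcripts would be hidden by the normalization. No batch or scan date was given, the files hold no background measure, and the number of arrays limits the precision. A second deposited table with identical values was not used.

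Symbols came from the platform annotation: 22758 of 65535 clusters had 1 symbol, 1389 several and 41388 none. Each gene was represented by its cluster with the highest mean (296 genes had over 1). The fit was lmFit and eBayes in limma 3.58.1 (R 4.3.3) on all clusters, with group as the only term, and the procedure was tested on simulated data. Chain ratios used an exact permutation test (scipy 1.17.1). The alternatives were other normalizations, a filter on dim clusters, a replicate block, other variance models and weights, other thresholds or clusters, and leaving out each array. Text names MYOD1, collagen genes with adjusted p below 0.05, the uncalled gene of highest mean in each class, the paired chains and up to 4 called genes per partner list; other genes were chosen after their values were seen. The genes, classes and lists were chosen with earlier results of these data known.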

Additional observations from a re-analysis of the deposited data

How the results depend on the processing

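COL14A1, COL19A1, COL15A1 and COL6A6 were the 4 called collagen genes after quantile normalization, median centring or cyclic loess, with a filter on dim clusters (32 genes tested), with other variance models or array weights, with adjustment over 1 cluster per gene, and without each of the 6 arrays. With the adjusted p alone 8 collagen genes passed, and with the second cluster of COL27A1 in place of the first 5 were called. The replicate numbers did not pair the samples (correlations of deviations -0.05, -0.04 and 0.03), and with a replicate block 4 collagen genes were called, while COL4A1, COL4A2, COL11A1 and COL27A1 had adjusted p of 0.0843 to 0.134, TIMP1 had 0.0581, COLGALT1 had 0.0572 and 1165 named genes were called in place of 1573. The number of called partner genes was 11, with 9 under the block and 8 to 11 without 1 array. The filter on dim clusters gave a median of 0.28 for type IV and -0.06 for the anchoring and other collagens, since it leaves fewer genes, and quantile normalization gave -0.22 for the multiplexins. In 14 uncalled collagen genes the sign changed under some setting, at differences of at most 0.05. They include COL11A2, whose difference was 0.00 in the main fit. Genes near the bottom of the signal range, with no background measure, limit what a lack of difference shows.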
